A study of Drosophila melanogaster with 36 samples.

Results

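The actin family of Drosophila melanogaster has 6 genes, and 4 of them had values in the 36 libraries measured here. The members were taken by symbol and matched through their FlyBase identifiers: the cytoplasmic actins Act5C and Act42A, and the muscle actins Act57B, Act79B, Act87E and Act88F. They are 6 of the 10226 genes that appeared in at least 1 of the tables. Act5C, Act42A, Act57B and Act87E were listed at every time, and Act79B and Act88F, whose best-known product is the actin of adult muscles, were not listed in the tables analysed here. Every value in the tables was above 0.

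Actin is the protein of microfilaments. The cytoplasmic forms are made in every cell; in the early embryo the filaments form the caps and furrows around the dividing nuclei and then the membranes of the first cells. The muscle forms are made later, as muscle cells build sarcomeres, and Act57B and Act87E are the muscle actins of the embryo and larva. The proteins are nearly identical, and so is much of the coding sequence, so the way in which reads were shared out between the 4 genes by the authors' quantification is uncertain. This bears most on the low values of the muscle actins beside the abundant Act5C.

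By the Ensembl BDGP6 annotation, Act5C (FBgn0000042) spans X:5900861-5905399 on the plus strand and has 5 transcripts of 2 exons each. Act42A (FBgn0000043, 2R:6013910-6015689, minus strand) and Act57B (FBgn0000044, 2R:20944021-20946431, plus strand) have 1 transcript each, and Act87E (FBgn0000046, 3R:13425983-13428375, plus strand) has 3. Act79B (FBgn0000045) lies at 3L:21985210-21987190 and Act88F (FBgn0000047) at 3R:15439969-15442177, both on the plus strand. The values are per gene, so exons, introns and untranslated regions are not separated. The long noncoding RNA gene lncRNA:CR45591 lies antisense to Act87E, and a small nucleolar RNA gene lies inside Act57B; neither was listed. The libraries were made with a strand-specific kit, but no source used here gives the strand setting of the counting. Reads of the antisense gene may therefore be in the values of Act87E.

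The study compared wild-type embryos, of the w1118 stock labelled as a control from before injection, with embryos of orb2-delta-zz flies. By its name the mutant allele lacks the ZZ domain of ORB2, a CPEB-type regulator of translation. The embryos were 0-1h, 1-2h or 2-3h old, counted from egg lay, a span in which maternal RNA is degraded and zygotic transcription begins. Extracts were run on 15-45% sucrose gradients, which separate RNA by the mass of the complexes it sits in, and RNA of pool 1 and pool 3 from every gradient was sequenced.

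There were 12 groups (wild type or orb2-delta-zz, 3 times, pool 1 or pool 3) of 3 libraries, from 18 gradients numbered 1 to 3 in each genotype and time. Values below are given in that order. Which fractions make up pool 1 or pool 3 is not stated in the labels, nor that the gradients came from separate collections, so the p-values measure only the spread between these samples. Embryos were lysed whole: fewer cells of a type and less RNA per cell cannot be told apart.

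Estimated depth was 23.0 M to 45.7 M reads per library (median 34.5 M). The gene total of orb2 does not check the deletion of a domain. Its level is given in TPM (transcript abundance per length, scaled to a fixed total). Over all times it was 0.701 to 15.9 in wild type against 1.71 to 8.98 in orb2-delta-zz in pool 1, and 5.94 to 32.5 against 9.13 to 27.7 in pool 3. By time, pool 3 had 32.5, 31.3 and 30.7 in wild type against 27.7, 25.2 and 23.2 at 0-1h. At 2-3h it had 5.94, 11.7 and 6.75 against 9.13, 15.7 and 13.8. A set of 5 gradients was higher than the others of their group in sarcomere genes, the genes of the contractile apparatus: orb2-delta-zz 0-1h gradient 1, wild type 1-2h gradient 2, orb2-delta-zz 1-2h gradient 3, and gradient 2 of both genotypes at 2-3h. The summed level of the 6 sarcomere genes listed at all times (Mlc2, bt, sls, Zasp52, Strn-Mlck and Mlp84B, of a list of 25) was 152, 1.03 and 6.40 TPM in pool 3 of orb2-delta-zz at 0-1h. It was 8.98, 129.6 and 6.50 TPM in wild type at 1-2h. Wild type 0-1h gradient 1 was also above its group, at a lower level (8.61, 3.23 and 3.06 TPM in pool 3), and is not among the 5. In pool 3 the same 5 gradients were also the highest of their group in 7 genes of other late embryonic tissues (elav, brp, Csp, serp, Cht6, Fas2 and nrv2). These summed to 323, 246 and 235 TPM in orb2-delta-zz at 0-1h and to 395, 513 and 425 TPM in wild type at 1-2h. In pool 1 this did not hold throughout, as wild type at 1-2h had 130, 90.1 and 161 TPM. The 5 gradients, a set chosen after the values were seen, decide several values of the muscle actins, which are given with and without them where a call or direction turned. They held the highest values of Act57B and Act87E in their groups. The adjusted p of a fit without them is therefore descriptive and not a test.

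Act5C was among the most abundant RNAs of pool 3. Its level there was 3160.4 to 4762 TPM, rank 7 to 12 among the genes of each library, against 222 to 489.9 TPM and rank 206 to 308 in pool 1. In pool 3 of wild type the 3 gradients gave 3243, 3988 and 3566 TPM at 0-1h and 4633, 4519 and 4413 TPM at 2-3h. The 18 libraries of pool 3 lay within a 1.51-fold range, the narrowest of the 4 genes.

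Act42A was lower by about an order of magnitude. Its level was 260.3 to 508 TPM in pool 3 and 8.79 to 31.1 TPM in pool 1. In TPM, a scale set per transcript length, Act5C exceeded Act42A 8.89-fold to 12.9-fold in pool 3 and 14.3-fold to 34.1-fold in pool 1. The order Act5C above Act42A held in each of the 36 libraries, and the ratio was higher in every library of pool 1 than in any of pool 3.

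**Figure D1:**
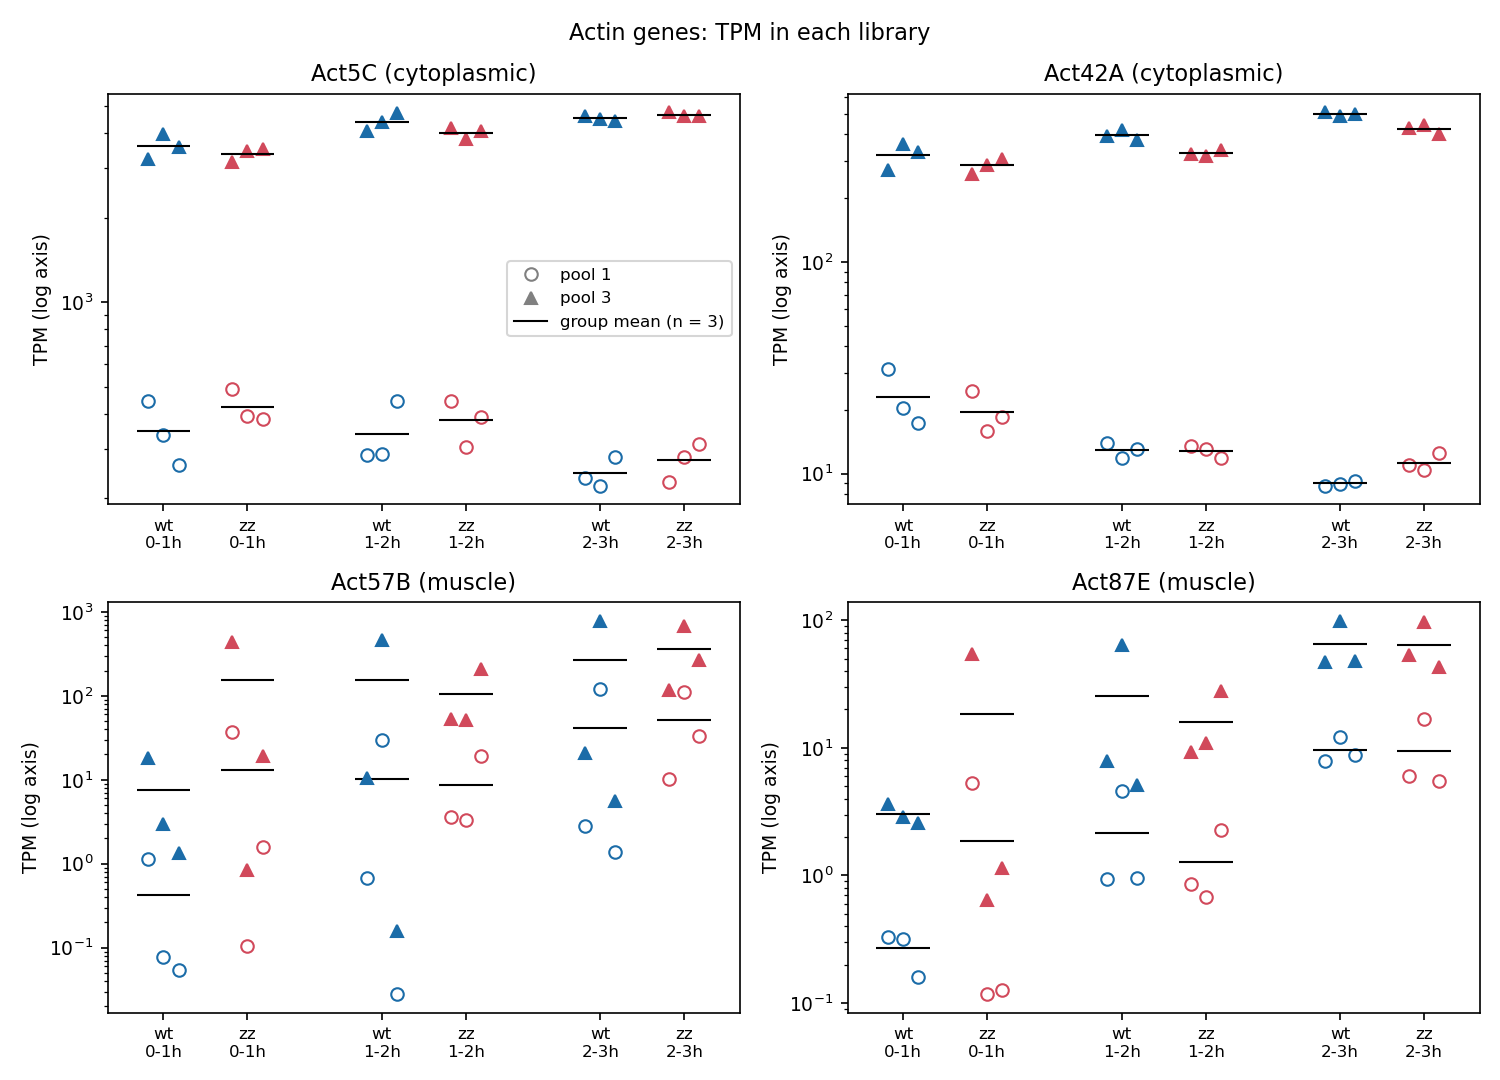
TPM of the 4 listed actin genes in each library on log axes, by genotype (wt, wild type; zz, orb2-delta-zz), time and pool; each point is 1 library. Act5C stays between 3160.4 and 4762 TPM in pool 3, while Act57B runs from 0.160 to 784 TPM in the same pool.

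The muscle actins varied far more. Act57B ranged from 0.0280 to 29.7 TPM in pool 1 at 1-2h and from 0.160 to 457 TPM in pool 3. Its normalized counts (estimated reads scaled by the authors within each time) in pool 3 of wild type at 1-2h were 271, 10035 and 4.24. In orb2-delta-zz they were 1374, 1332 and 4966. Wild-type gradient 2 was above and gradients 1 and 3 were below all mutant values, so the groups overlapped, and the value of gradient 3 corresponds to an estimated 4.01 reads (2.02 reads in its pool 1).

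At 0-1h Act57B in pool 3 was 516, 86.8 and 39.4 normalized counts in wild type and 12042, 24.6 and 572 in orb2-delta-zz. Mutant gradient 1 was far above all other libraries and mutant gradient 2 was the lowest of the 6. At 2-3h the values were 486, 15307 and 131 in wild type and 2636, 12905 and 5778 in orb2-delta-zz, with wild-type gradients 1 and 3 below all 3 mutants and gradient 2 above them.

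Act87E was less scattered at the last time. In pool 3 it had 92.7, 73.8 and 66.7 normalized counts in wild type at 0-1h, against 1331, 17.0 and 30.8 in orb2-delta-zz. At 1-2h the values were 184, 1266.5 and 123 in wild type and 221, 253 and 594 in the mutant. At 2-3h they were 984, 1746 and 1016 in wild type and 1074, 1660.2 and 831 in the mutant, and the groups overlapped at all 3 times.

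Together the muscle actins made up 0.0394% to 12.6% of the actin TPM at 0-1h, 0.103% to 10.3% at 1-2h and 1.07% to 36.4% at 2-3h. The ratio of Act57B to Act87E (TPM) also depended on the gradient. At 2-3h it was 0.117 to 0.445 in the 4 libraries of wild-type gradients 1 and 3, where Act87E was the higher of the pair, and 7.91 to 9.86 in those of wild-type gradient 2, where Act57B was.

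The high libraries of Act57B were those of the sarcomere genes. In pool 3 at 2-3h the 6 sarcomere genes summed to 57.6, 230.2 and 45.0 TPM in wild type and 72.1, 215 and 96.4 TPM in orb2-delta-zz. Mhc, the muscle myosin heavy chain, had 189, 5250 and 7.93 normalized counts in wild type, rising and falling with Act57B across the 3 gradients. Of the 25 sarcomere genes, 6, 11 and 16 were listed at 0-1h, 1-2h and 2-3h; Mlc1, Tm2 and wupA were not listed at any time. The part of these genes' source in the muscle actin values was not tested.

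**Figure D2:**
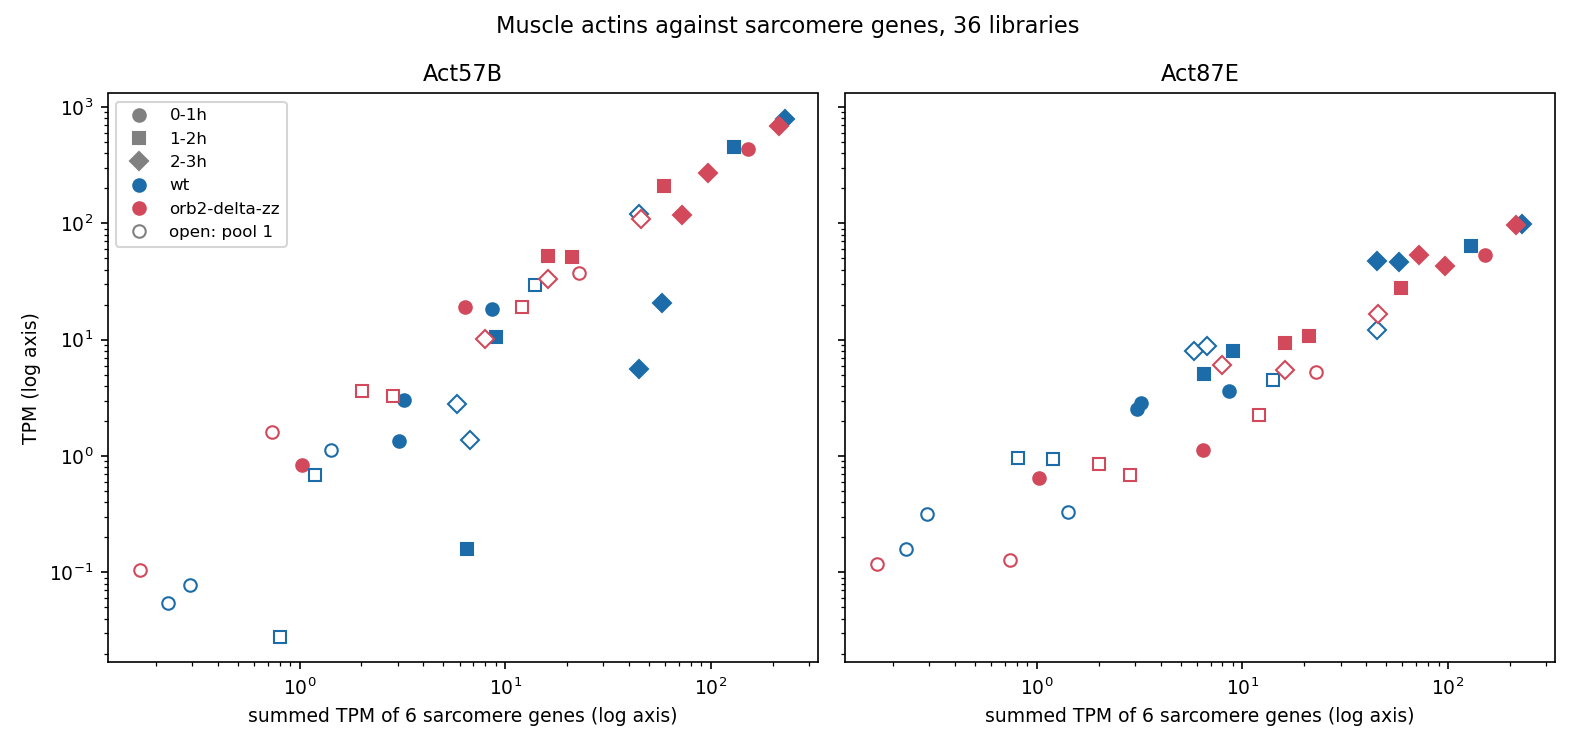
TPM of Act57B and Act87E against the summed TPM of 6 sarcomere genes in the 36 libraries, both on log axes; each point is 1 library. Both genes increase with the sum, from 0.0280 to 784 TPM for Act57B and from 0.118 to 99.1 TPM for Act87E.

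The comparison of the pools asks whether an RNA was higher in pool 3 or in pool 1 relative to the typical gene. Both cytoplasmic actins were higher in pool 3 than in pool 1, in both genotypes and at each time: 12 of 12 tests were called. Of all genes, 80.4%, 74.0% and 56.4% were called in either direction in wild type at 0-1h, 1-2h and 2-3h, and 39.8%, 37.0% and 29.3% were called higher. In orb2-delta-zz the shares were 80.5%, 74.5% and 60.0%, of which 40.6%, 36.9% and 29.9% were higher. Log2 ratios below are on log2(normalized count + 1), a scale on which the median gene had a ratio near 0 (-0.07 to 0.07). That follows from the scaling of the libraries. The amount of RNA in each pool is not in the values, so a ratio does not give the share of an RNA in a pool.

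Act5C in wild type at 0-1h had 25405, 30129 and 27589 normalized counts in pool 1 and 103264, 129664 and 116819 in pool 3. The pools did not overlap, as for 42.0% of all genes in this direction, and the ratio within a gradient was 4.06, 4.30 and 4.23. The log2 ratio was 2.07 ± 0.13 (SE, n = 3, limma, Benjamini-Hochberg adjusted p = 6.78e-08) at 0-1h and then 1.93 and 1.74. For orb2-delta-zz it was 1.57, 1.57 and 1.55.

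Act42A leaned further to pool 3. In wild type at 2-3h it had 1148, 923 and 1018 normalized counts in pool 1 and 11071, 8942 and 11008 in pool 3, which is 9.63-fold, 9.68-fold and 10.8-fold within the gradients. The log2 ratio in wild type was 2.51 ± 0.12 at 0-1h, 3.13 ± 0.13 at 1-2h and 3.33 ± 0.15 at 2-3h (limma, highest adjusted p = 8.10e-09). In orb2-delta-zz it was 2.44, 2.81 and 2.69. The log2 ratio of Act42A exceeded that of Act5C in 18 of 18 gradients, by 0.27 to 1.77 with a median of 1.07.

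On log2(TPM + 1) the median gene itself had a pool ratio of 1.19 to 2.14. Relative to that median, Act5C kept 1.71 to 2.20 and Act42A 2.51 to 3.50.

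The muscle actins were also higher in pool 3 within the early gradients. Act57B exceeded its pool 1 value 8.88-fold, 12.2-fold and 6.67-fold in wild type at 0-1h, and 5.45-fold, 2.40-fold and 3.99-fold in orb2-delta-zz. At 2-3h the ratios were 1.25, 1.16 and 0.823 in wild type and 1.93, 0.985 and 1.53 in the mutant. Those of Act87E were 5.88, 3.15 and 4.75 in wild type at 0-1h and 0.986, 1.45 and 1.09 at 2-3h.

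None of the 12 muscle tests was called without the gradient as a block (0 of 12 by limma, 1 at an unadjusted p under 0.05), and the gradients of a group differed by up to 2364-fold (Act57B in pool 3 of wild type at 1-2h). Pools 1 and 3 of a number came from the same gradient, and with the gradient as a block 9 of 12 were called, where 81.8%, 79.9% and 68.4% of all genes were called in wild type and 81.2%, 81.5% and 71.9% in orb2-delta-zz. At 0-1h the blocked log2 ratio of Act57B was 3.17 in wild type (limma, adjusted p = 2.98e-05) and 1.901 in orb2-delta-zz (limma, adjusted p = 0.000402); over all the settings run, the adjusted p of these 2 values reached 0.391 and 0.595. Act87E gave 2.15 in wild type (limma, blocked adjusted p = 0.000570, up to 0.372 over the settings).

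At 2-3h the muscle actins were close to even between the pools on normalized counts. In TPM, where the median gene itself had a higher ratio, both were higher in pool 3. Over the settings run the log2 ratio of Act57B was -0.40 to 2.23 in wild type and 0.07 to 3.00 in orb2-delta-zz. That of Act87E was -0.27 to 2.55 and -0.11 to 2.72 (limma, lowest adjusted p = 0.000127 and 7.62e-05). With the block, Act57B had a log2 ratio of 0.09 in wild type (limma, adjusted p = 0.693) and 0.51 in orb2-delta-zz (limma, adjusted p = 0.0297), and Act87E 0.21 and 0.33 (limma, adjusted p = 0.289 and 0.103). Both lay below Act5C in 6 of 6 gradients at that time, Act57B by 0.85 to 1.95 and Act87E by 0.92 to 1.73 on the log2 scale. At 0-1h Act57B lay above Act5C in 5 of 6 gradients and Act87E in 3 of 6.

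**Figure D3:**
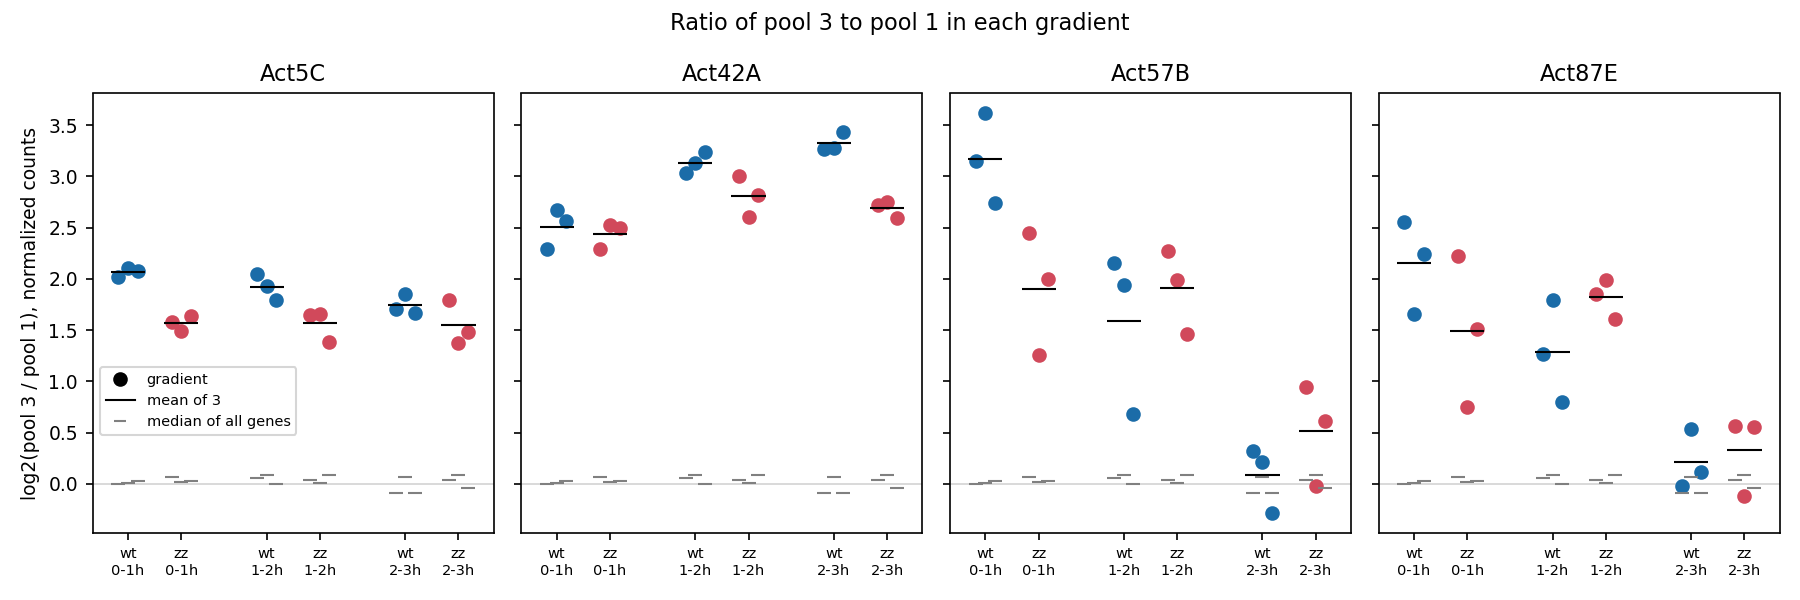
Log2 ratio of pool 3 to pool 1 (normalized counts) of each actin gene in each of the 18 gradients, by genotype (wt, wild type; zz, orb2-delta-zz) and time; each point is 1 gradient. Act42A lies at 2.29 to 3.43 throughout, and Act57B drops from 1.26 to 3.61 at 0-1h to -0.28 to 0.95 at 2-3h.

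The comparison of genotypes asks whether removal of the ZZ domain changed the level of an RNA in a pool. No cytoplasmic test was called (0 of 12 by limma, 2 at an unadjusted p under 0.05), and no muscle test (0 of 12, 0 at an unadjusted p under 0.05). Of all genes, 10%, 11.4% and 23.9% were called in pool 1 at 0-1h, 1-2h and 2-3h, and 7.58%, 8.57% and 14.7% in pool 3. Log2 differences below are orb2-delta-zz minus wild type.

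Act5C in pool 1 at 0-1h came closest to a call. It had 25405, 30129 and 27589 normalized counts in wild type and 32866, 40837 and 38615 in orb2-delta-zz. All 3 mutant values were above all 3 wild-type values, as for 12.7% of genes (23.3% did not overlap in either direction). In TPM the groups overlapped, with 446, 337 and 263 in wild type and 490, 394 and 385 in orb2-delta-zz. The log2 difference was 0.43 ± 0.13 (SE, n = 3; 95% interval 0.14 to 0.73; limma, adjusted p = 0.0681). Without mutant gradient 1, the one high in sarcomere genes, it was 0.52 (limma, adjusted p = 0.0240), when 15.4% of all genes were called; over the 17 settings run the adjusted p was 0.00402 to 0.765.

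In pool 3 the Act5C difference was -0.07, -0.10 and -0.04 at 0-1h, 1-2h and 2-3h, and the groups overlapped each time. The 95% intervals were -0.36 to 0.23, -0.45 to 0.25 and -0.40 to 0.32, so differences of that size in pool 3 could not be seen.

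Act42A in pool 3 was lower in orb2-delta-zz at 1-2h without overlap, with 9398, 8605 and 9324 normalized counts in wild type and 7909, 7581 and 7457 in the mutant. That holds for 11.8% of all genes in this direction (28.6% in both), and the log2 difference of -0.25 ± 0.13 did not pass the test (limma, adjusted p = 0.326). At 2-3h it had 1148, 923 and 1018 in pool 1 of wild type and 1372, 1162 and 1325 in the mutant. All 3 mutant values were higher, as for 20.3% of genes (36.8% in both directions). The log2 difference was 0.32 ± 0.15 (limma, adjusted p = 0.126).

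In pool 3 at 2-3h the sign was the other way, with 11071, 8942 and 11008 in wild type against 9026, 7836 and 8027. The groups overlapped, as 1 mutant value was above the lowest wild-type value, and the log2 difference was -0.31 ± 0.15 (limma, adjusted p = 0.162). Both differences at 2-3h passed the test with the replicate number as a block (limma, adjusted p = 0.0222 in pool 1 and 0.0305 in pool 3), a fit in which 41.3% and 34.6% of all genes were called; over the settings run the adjusted p reached 0.296 and 0.426.

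Act57B differed by 2.12 to 3.46 on the log2 scale, toward orb2-delta-zz in 6 of 6 comparisons with all gradients, with standard errors of 1.73 to 2.34. At each time the pools come from the same gradients, so the 6 comparisons are not independent. The direction held over the settings run except in pool 3 at 0-1h, while the size depended on single gradients. At 0-1h, without mutant gradient 1, the difference in pool 1 went from 3.46 to 1.52 (limma, adjusted p = 0.577) and that in pool 3 from 2.20 to -0.02 (limma, adjusted p = 0.998); without wild type gradient 1 they were 4.51 and 3.24 (limma, adjusted p = 0.321 and 0.623). Without wild type 1-2h gradient 2 the difference at 1-2h was 5.30 in pool 1 and 5.79 in pool 3 (limma, adjusted p = 0.0399 and 0.0268, with 10.2% and 9.73% of all genes called). Without wild type 2-3h gradient 2 that at 2-3h was 4.03 and 4.52 (limma, adjusted p = 0.00556 and 0.00424, with 33.5% and 33.6% of all genes called). Over all settings the adjusted p of these 4 values reached 0.881, 0.954, 0.766 and 0.751. Without all 5 gradients high in sarcomere genes the difference at 2-3h was 3.18 and 3.94 (limma, adjusted p = 0.0244 and 0.0215), from 2 gradients a group, and 23.3% and 17.9% of all genes were called. At 1-2h the values without those gradients were not called. Wild-type gradient 2 had the highest wild-type value of Act57B in each pool at 1-2h and 2-3h. Fits without it leave out the value most opposed to the difference, so their adjusted p does not test that difference.

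Act87E showed no common direction between the genotypes, with differences of -0.46 to 0.89. In pool 3 at 0-1h the difference of 0.23 ± 1.51 turned to -1.70 without mutant gradient 1 (limma, adjusted p = 0.0135, with 11.9% of all genes called, and 0.0135 to 1.00 over the settings). The remaining mutant values of 17.0 and 30.8 normalized counts were then both below the wild-type values of 92.7, 73.8 and 66.7.

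Early mesoderm genes, which mark the tissue that muscle comes from, were called lower in orb2-delta-zz more often than higher. twi, the transcription factor that specifies mesoderm, had 349, 748 and 766 normalized counts in pool 3 of wild type at 0-1h and 203, 205 and 115 in orb2-delta-zz. Of the 14 genes of that list, 4 of 12 tested were lower and 1 higher in orb2-delta-zz in pool 3 at 0-1h, where 3.13% of all genes were called lower and 4.45% higher. At 1-2h 8 of 13 were lower (5.04% of all genes) and at 2-3h 2 of 14 (4.97%). In pool 1 the counts were 3 lower and 2 higher of 12, 6 lower of 13 and 4 lower of 14, where 4.42%, 4.80% and 9.48% of all genes were lower and, at 0-1h, 5.62% higher. Higher in pool 1 at 0-1h were meso18E (1.10 ± 0.22; limma, adjusted p = 0.00917) and how (0.36 ± 0.09; limma, adjusted p = 0.0242), and among the lower ones were twi (-1.51) and Mdr49 (-2.41). Of the sarcomere genes none was called between the genotypes in either pool at any time (0 of 6, 11 and 14 tested by limma).

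**Figure D4:**
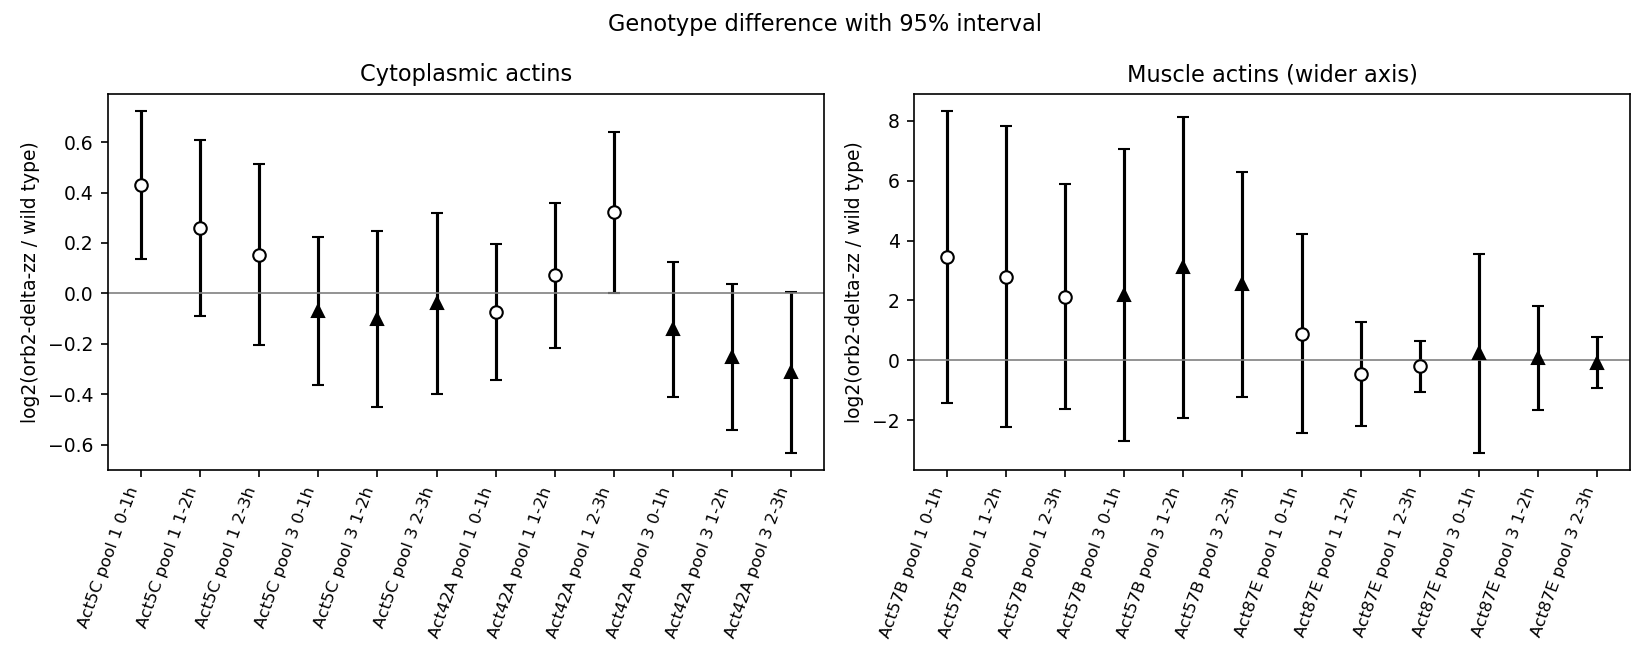
Log2 difference (orb2-delta-zz minus wild type, normalized counts) of each actin gene by pool and time, with 95% intervals from the fit over 3 libraries a group; the muscle actins have a wider axis. The intervals of Act57B all include 0 and reach from -2.69 to 8.35.

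The difference of the pool ratio between the genotypes was tested as an interaction, and none of the 12 values was called (0 of 12 by limma, 2 at an unadjusted p under 0.05; 0.518%, 0.482% and 0.136% of all genes were called at 0-1h, 1-2h and 2-3h). The ratio of Act5C at 0-1h was 4.06, 4.30 and 4.23 in wild type and 2.99, 2.82 and 3.11 in orb2-delta-zz. All 3 mutant gradients were lower, as for 7.50% of all genes (15.4% in both directions), and the log2 ratio differed by -0.50 ± 0.19 (limma, adjusted p = 0.530). The ratio of Act42A at 2-3h was 9.63, 9.68 and 10.8 against 6.58, 6.74 and 6.05, again without overlap, as for 15.0% of all genes (30.3% in both directions).

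The difference of the Act42A ratio at 2-3h was -0.64 ± 0.21 (limma, adjusted p = 0.213). It was called with the gradient as a block (limma, adjusted p = 0.0440, where 5.34% of all genes were called), and the adjusted p reached 0.709 over the settings. At 1-2h the ratios of both cytoplasmic actins were also lower in all 3 mutant gradients than in any wild-type one, as for 10.3% of all genes (14.1% in both directions). They were 3.14, 3.16 and 2.61 against 4.15, 3.80 and 3.47 for Act5C. The ratios of Act57B at 0-1h, given above, were likewise all lower in the mutant gradients, where 7.50% of all genes were, with a log2 difference of -1.27 ± 3.14 (limma, adjusted p = 0.988; -1.27 ± 0.37 and adjusted p = 0.410 with the gradient as a block). On log2(TPM + 1) that difference was 0.32.

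The comparison of times was made on log2(TPM + 1), the unit scaled alike at every time. There the median of all genes fell in pool 1 between 0-1h and 2-3h, by 1.35 for wild type and by 1.11 for orb2-delta-zz, while it moved by -0.28 and -0.07 in pool 3. Changes of the actins are therefore also given relative to that median. Of 24 cytoplasmic tests 14 were called, 5 higher and 9 lower, and of 24 muscle tests 8 were called, all higher and all of Act87E. Over all genes 54.5%, 76.0% and 84.0% were called in wild-type pool 1 (0-1h to 1-2h, 1-2h to 2-3h and 0-1h to 2-3h), and 31.2%, 64.2% and 67.4% in its pool 3. For orb2-delta-zz the shares were 42.5%, 69.9% and 78.5% in pool 1, and 23.0%, 53.5% and 61.7% in pool 3. Those called lower in pool 1 were 46.4%, 55.9% and 68.8% of all genes in wild type and 34.9%, 53.1% and 64.8% in orb2-delta-zz.

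At 2-3h the cytoplasmic actins stood higher against the median gene of their library than at 0-1h. Act5C in pool 3 of wild type was at 51.1, 63.4 and 56.8 times the median TPM of its library at 0-1h, and at 119, 115 and 112 times at 2-3h. In orb2-delta-zz it went from 50.5, 53.5 and 54.3 to 107, 100.5 and 100.5. Act42A in pool 3 went from 4.29, 5.70 and 5.24 to 13.0, 12.5 and 12.6 in wild type. In orb2-delta-zz it went from 4.16, 4.43 and 4.73 to 9.69, 9.65 and 8.73, and no 2-3h value of either gene overlapped a 0-1h value. That held, in this direction, for 53.6% of all genes when wild type was compared and for 53.2% with orb2-delta-zz, and the typical multiple itself moved by 0.43 and 0.46 on the log2 scale. In pool 3 the mutant multiples of both genes lay wholly below the wild-type ones at 1-2h and at 2-3h, as for 26.6% and 38.3% of all genes; this ratio was not tested. For Act5C at 1-2h they were 70.8, 65.5 and 69.1 against 71.4, 84.0 and 84.0.

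In TPM itself Act42A rose in pool 3 between 0-1h and 2-3h, by 0.65 ± 0.17 in wild type (limma, adjusted p = 0.00242; 0.93 relative to the median) and by 0.57 ± 0.17 in orb2-delta-zz (limma, adjusted p = 0.00692; 0.65 relative). Act5C rose by 0.46 ± 0.15 in orb2-delta-zz pool 3 (limma, adjusted p = 0.0123; 0.54 relative) and differed by 0.33 ± 0.15 in wild type (limma, adjusted p = 0.0574; 0.62 relative).

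In pool 1 the TPM of Act5C fell by 0.47 ± 0.15 in wild type (limma, adjusted p = 0.00680) and by 0.63 ± 0.15 in orb2-delta-zz (limma, adjusted p = 0.000765) between 0-1h and 2-3h, less than the median gene (0.88 and 0.49 relative to it), and under upper-quartile scaling the direction turned to rises of 1.39 and 0.96. The TPM of Act42A fell by 1.22 in wild type and by 0.73 in orb2-delta-zz (limma, adjusted p = 1.21e-06 and 0.000584), which is 0.13 and 0.38 relative to the median, and it turned to 0.54 and 0.78 under that scaling. The directions in pool 1 thus depend on the scale, while those relative to the median gene were upward for both genes over this interval. The call for Act5C in wild type was lost without wild type 0-1h gradient 1 (-0.28; limma, adjusted p = 0.0695, and 1.13e-10 to 0.0695 over the settings).

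From 0-1h to 1-2h Act42A in pool 1 moved the other way against the median gene. Its TPM fell by 0.74 ± 0.18 in wild type (limma, adjusted p = 0.00122; -0.31 relative to the median) and by 0.56 ± 0.18 in orb2-delta-zz (limma, adjusted p = 0.0136; -0.30 relative). These falls were called in 20 and 16 of 23 settings. Under quantile normalization they were -0.06 and -0.04 (limma, adjusted p = 0.653 and 0.777, the highest of the settings), and in orb2-delta-zz the call was lost without 0-1h gradient 1 (-0.39) or 1-2h gradient 3 (-0.51; limma, adjusted p = 0.114 and 0.0665). Against the library median, Act42A in pool 1 of wild type was at 1.03, 1.08 and 1.13 times at 0-1h and 1.08, 1.08 and 0.934 times at 1-2h, and the values of the times overlapped.

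**Figure D5:**
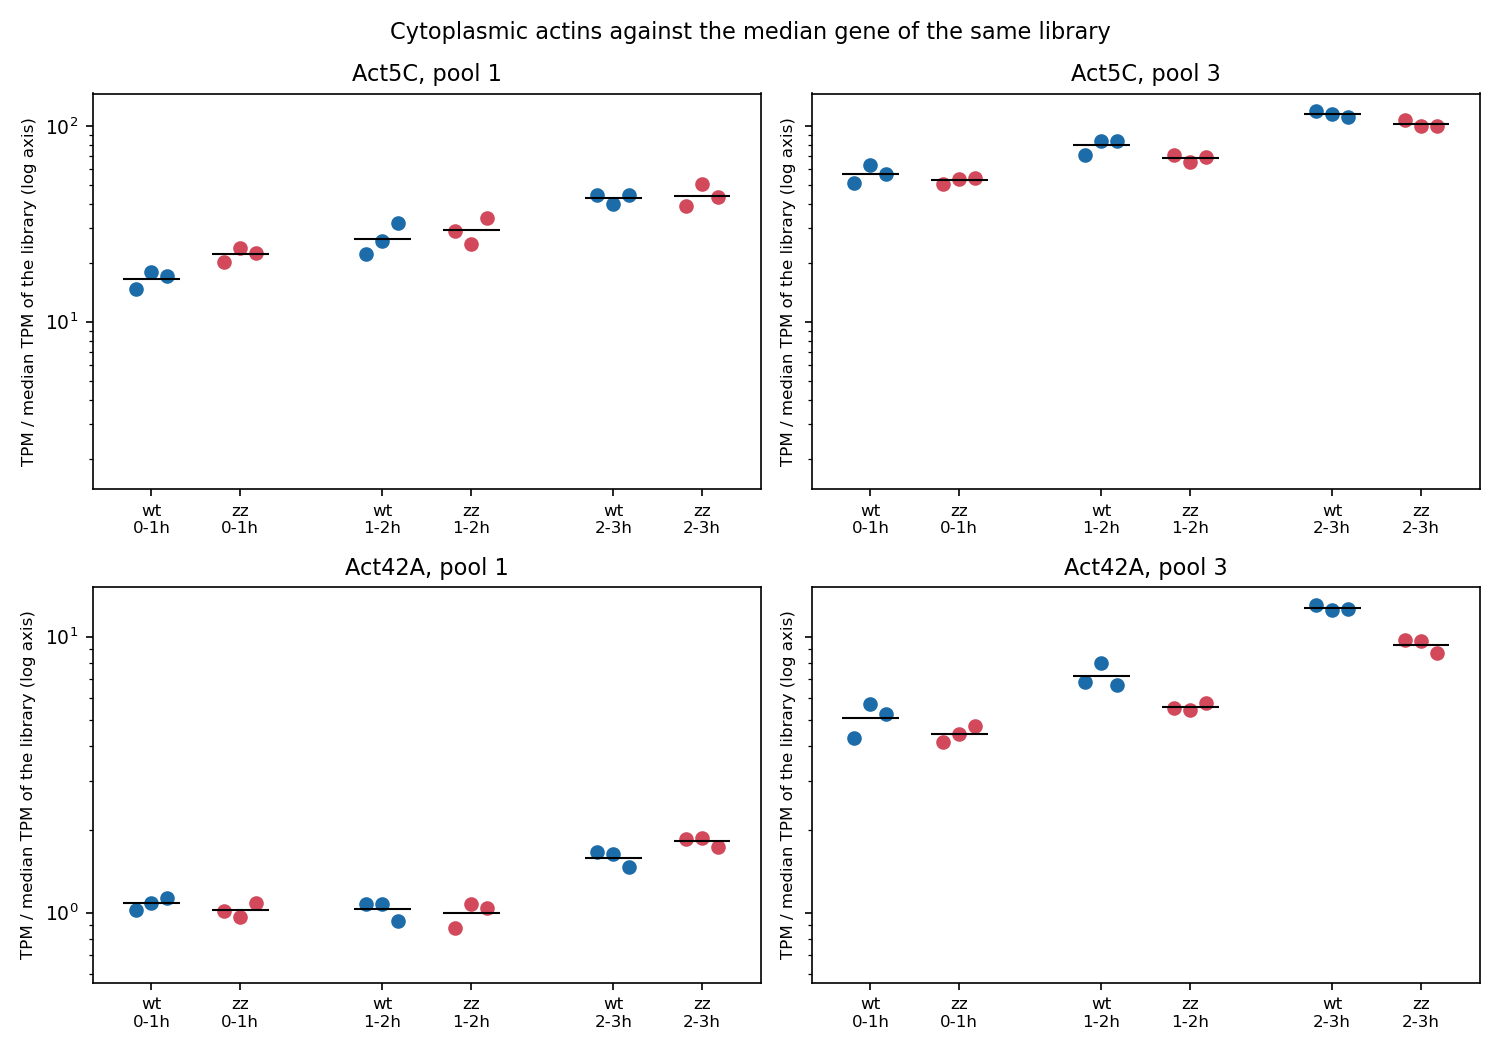
TPM of Act5C and Act42A divided by the median TPM of the 7633 genes listed at all times in the same library, on log axes, by pool, genotype and time; each point is 1 library. In wild-type pool 3 Act5C goes from 51.1 to 63.4 at 0-1h to 112 to 119 at 2-3h, and Act42A from 4.29 to 5.70 to 12.5 to 13.0.

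Act87E rose between 1-2h and 2-3h in both pools and genotypes. In pool 3 its TPM went from 7.93, 63.6 and 5.11 to 46.9, 99.1 and 47.5 in wild type, and from 9.34, 10.9 and 27.8 to 53.1, 97.4 and 42.9 in orb2-delta-zz. In wild type, gradient 2 at 1-2h lay above 2 of the later values. The log2 change was 1.92 in wild-type pool 1, 2.01 in wild-type pool 3, 2.11 in orb2-delta-zz pool 1 and 2.02 in orb2-delta-zz pool 3 (SE 0.66 in each; limma, adjusted p = 0.0123, 0.0115, 0.00753 and 0.0146). In these comparisons 20.2%, 23.0%, 16.8% and 19.9% of all genes were called higher.

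These calls rest on few gradients. That in wild-type pool 1 was lost without wild type 1-2h gradient 1 (1.67; limma, adjusted p = 0.0512). That in wild-type pool 3 was lost without wild type 1-2h gradient 1 (1.63), 1-2h gradient 3 (1.36) or 2-3h gradient 2 (1.66; limma, adjusted p up to 0.100). Those in orb2-delta-zz were lost without orb2-delta-zz 2-3h gradient 2 (1.64 in pool 1 and 1.68 in pool 3) and, in pool 3, without 1-2h gradient 1 (1.74) or 2 (1.84; limma, adjusted p up to 0.0680). Without all 5 gradients high in sarcomere genes the 4 changes were 1.94 to 2.71 (limma, highest adjusted p = 1.45e-06). They had the same direction as over all gradients, with lower adjusted p. In those fits 75.5%, 60.2%, 66.0% and 42.2% of all genes were called in wild-type pools 1 and 3 and orb2-delta-zz pools 1 and 3.

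Between 0-1h and 2-3h Act87E rose by 3.05 and 3.94 in pools 1 and 3 of wild type and by 2.22 and 3.41 in those of orb2-delta-zz (SE 0.87; limma, adjusted p = 0.00275, 0.000402, 0.0238 and 0.00183), where 15.2%, 23.3%, 13.7% and 26.0% of all genes were called higher. The change in orb2-delta-zz pool 1 was not called without orb2-delta-zz 0-1h gradient 2 (1.80), 0-1h gradient 3 (1.81) or 2-3h gradient 2 (1.76; limma, adjusted p up to 0.109). Act57B differed by 2.87 to 3.47 over the same interval with an SE of 1.83, and none of its 12 tests between times was called by limma. Without the 5 gradients, its change from 0-1h to 2-3h was 3.53 and 4.89 in pools 1 and 3 of orb2-delta-zz (limma, adjusted p = 0.00511 and 0.000638, with 71.6% and 51.8% of all genes called) and 1.15 and 1.08 in wild type (limma, adjusted p = 0.254 and 0.323). Over all the settings the adjusted p of these 4 values was at most 0.585.

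No actin differed between the genotypes in its change with time (0 of 24 by limma, 1 at an unadjusted p under 0.05; 0.0699%, 5.07% and 9.98% of all genes were called in pool 1 for the 3 intervals and 0.112%, 5.23% and 6.19% in pool 3).

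Genes whose products act on actin were called in both directions between the pools. Of the 42 filament regulators, 18 of 40 tested were higher and 16 lower in pool 3 of wild type at 0-1h, close to the shares of all genes (39.8% higher and 40.6% lower), with a median log2 ratio of -0.12 against 0.01 for all genes. Higher were cher, a filamin that cross-links filaments (4.57 ± 0.37; limma, adjusted p = 3.49e-07), and the formin Fhos (4.05 ± 0.25). Lower were flr, which helps take filaments apart (-1.48 ± 0.09), and the Arp2/3 subunit Arpc3A (-2.28 ± 0.18). At 2-3h 21 of 42 were higher and 5 lower (29.3% and 27.1% of all genes), with a median of 0.68 against -0.07.

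In the chaperonin and serum response factor list more genes were lower than higher in pool 3. CCT and prefoldin subunits fold newly made actin, and Mrtf and bs form the transcription factor pair that answers to free actin. Of 16 genes, 2 were higher and 13 lower in pool 3 of wild type at 0-1h (39.8% and 40.6% of all genes), with a median log2 ratio of -0.85 against 0.01 for all genes. Mrtf was the higher one with the largest ratio (5.17 ± 0.25), and the prefoldin subunits Pfdn6 and mgr were lowest (-1.26 ± 0.20 and -1.47 ± 0.10; limma, adjusted p = 9.45e-05 and 1.30e-07).

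Of 13 nonmuscle myosin genes, 12 were listed. The gene zip was not listed at any time, and whether it appears under another identifier was not checked. Of those listed, 7 were higher and 0 lower by limma at 0-1h in wild type, where 39.8% and 40.6% of all genes were (median 1.04 against 0.01). The highest were RhoGEF2, which activates the myosin pathway (5.62 ± 0.30), and ck, a myosin VIIA (5.33 ± 0.36). At 1-2h the count was 7 higher and 1 lower (37.0% of all genes in either direction), and at 2-3h 9 higher and 0 lower by limma (29.3% and 27.1%). Of 7 actin-related proteins, 2 of 6 tested were higher and 3 lower at 0-1h, with Bap55 of the chromatin remodelling complexes at 2.18 ± 0.11 and Arp1 of dynactin at -0.67 ± 0.08.

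Between the genotypes the chaperonin list was called most at 2-3h, when 10 of 16 genes were higher in orb2-delta-zz in pool 1 and 4 in pool 3, and none lower in either (in pool 1, 14.4% of all genes were higher and 9.48% lower; for pool 3 these shares were 9.71% and 4.97%). The chaperonin subunit CCT4 had the largest difference in pool 1 (1.86 ± 0.18; limma, adjusted p = 0.000101), and bs had 1.35 ± 0.27. Of the 42 filament regulators 10 were higher and 1 lower in pool 1, with the membrane linker Moe at 1.69 ± 0.35, the capping protein subunit cpb at 1.69 ± 0.21 and ena, which promotes filament elongation, at -0.81 ± 0.23. In pool 3 the counts were 6 and 1. With time, 15 of the 16 chaperonin and Mrtf-bs genes fell in wild-type pool 1 and 13 in wild-type pool 3 between 0-1h and 2-3h, with median log2 changes of -2.82 and -1.95 against -1.35 and -0.28 for all genes, where 68.8% and 44.1% of all genes fell. Act42A rose in pool 3 over that interval.

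The genes with the most similar profile over the 36 libraries, on log2(TPM + 1), differed between the 2 classes. For Act5C they were CG3618, pont and NFAT (each r = 0.99), with Act42A at rank 10 of 7293 genes compared. For Act42A they were CG1637, ApepP and O-fut1 (r = 0.997, 0.996 and 0.995). For Act57B they were Mlc2, a muscle myosin light chain (r = 0.99), serp (0.92) and CG33521 (0.91), and for Act87E Mlp84B, a muscle LIM protein (0.98), Ldh (0.97) and CG5171 (0.97).

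Within the family, Act5C and Act42A had r = 0.99, Act57B and Act87E 0.83, and pairs across the classes 0.42 to 0.56. These correlations describe libraries that share pools, times and gradients. The 36 points are not independent, and the step from pool 1 to pool 3 that most genes share enters every value.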

How the data were processed

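Values are those deposited by the authors, as tables per time of collection. Per the submitters' processing notes, reads were trimmed with Trim Galore 0.6.5, quantified with Salmon 1.9.1 and normalized with DESeq2 1.42.1; no build is named there. The normalized counts deposited by the authors are a signal per gene, estimated reads divided by factors that include transcript length, scaled at each time separately. The TPM values deposited by the authors are scaled per library. Replicates were not pooled.

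Pools and genotypes were compared within a time by limma 3.58.1 with trend (R 4.3.3) on log2(normalized count + 1) over the 12 libraries of 4 groups, for genes with a mean of at least 10 (7533, 8294 and 9554 genes). Times were compared in pairs on log2(TPM + 1) over 24 libraries of 8 groups, for genes with a mean TPM of at least 1 (7157 to 7707 genes), since normalized counts are not scaled across times. Tests were two-sided, with Benjamini-Hochberg adjustment over all genes tested and a threshold of 0.05. SE, intervals (95%) and adjusted p come from these fits, in which the spread of 4 or 8 groups is shared.

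Depth was estimated from the steps of low values in genes with 1 transcript of at least 1500 nt. Whole reads could be recovered only for such genes, so no count test was run. A depth of this size leaves counting error small for Act5C and Act42A and large for Act57B where it had few reads. Pools of the same number come from the same gradient by the labels, and their deviations from the group means correlated (0.125 to 0.831). The main fits did not use this pairing. The gradient was entered only in an alternative fit, as a block, and results of that fit are named as such.

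Gene names and coordinates are from Ensembl release 115 (BDGP6). Of 10226 identifiers, 72 had no symbol, and a gene given as not listed could be among these. The members and all gene lists were chosen with earlier results of these data known. Of each list, genes past the threshold with the 2 highest and 2 lowest values in abundant genes were open to naming; likeness was Pearson correlation on log2(TPM + 1). Lists of other late embryonic tissues and of eggshell genes were also run: 8, 13 and 15 of 20, and 1, 0 and 2 of 16, were listed at the 3 times. The late tissue genes called between the genotypes, all lower in orb2-delta-zz, numbered 0, 1 and 1 for pool 1, and 0, 1 and 0 for pool 3. Of all genes, 4.42%, 4.80% and 9.48% were called lower in pool 1, and 3.13%, 5.04% and 4.97% in pool 3. Only the genotype difference in pool 1 at 0-1h was tested on simulated data, with noise drawn independently for each library. The simulation did not cover the pairing of pools, the comparisons of pools or those of times. Alternatives covered the pseudocount, filter, unit, scaling, samples in the fit, a replicate block and gradients left out.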

Additional observations from a re-analysis of the deposited data

How the results depend on the processing

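Of 1396 values of the 4 genes under other settings, 1213 kept their direction and side of the threshold, 24 lost the call, 71 gained it, 23 reversed with a call in either setting, and 65 changed sign with no call in either. Of 1224 values with 1 gradient left out, 19 lost the call, 16 gained it, 1 reversed and 86 changed sign uncalled. Both cytoplasmic actins were called between the pools in 12 of 12 comparisons under all settings run, also with 1 gradient left out. Cytoplasmic calls between the genotypes went from 0 to 1 on log2(TPM + 1), 2 under upper-quartile scaling, 1 under quantile normalization, 1 without the 3 gradients that stood apart at 0-1h and 1-2h, 1 without the 5 high in sarcomere genes, and 0 to 1 with 1 gradient left out. Muscle calls between the genotypes went from 0 to 1 and 3 without those sets and to 0 to 2 with 1 gradient left out. Muscle calls between the pools went from 0 to 4 on log2(TPM + 1), 4 with only the libraries compared, 4 and 4 without those sets, and 0 to 2 with 1 gradient left out. The share of all genes called also moved with the setting, so these counts alone do not set the actins apart. Between the genotypes in pool 1 at 2-3h it went from 23.9% to 41.3% with the replicate block.

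Whether wild-type and orb2-delta-zz gradients of a number share a collection is not stated in the labels. The deviations of same-numbered gradients correlated at -0.09 to 0.24, -0.74 to 0.43 and -0.01 to 0.76 at the 3 times. In pool 1 at 0-1h and 2-3h every pair was above 0.1, in pool 3 not every pair was, so the genotypes were not treated as pairs. With the replicate number as a block, 3 cytoplasmic and 1 muscle comparisons of the genotypes, 1 difference of the pool ratio and 9 muscle comparisons of the pools were called. The block left the counts between times at 14 (cytoplasmic) and 8 (muscle).

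Calls between times went from 14 to 6 (cytoplasmic) without the 5 gradients and were 13 to 15 with 1 gradient left out. For the muscle actins they went from 8 to 5 on log2(TPM + 5), 15 and 16 without the 3 and 5 gradients, and 5 to 12 with 1 left out. The difference of the pool ratio gave 0 calls, and that of the change with time 0, with any 1 gradient left out; the latter gave 1 under upper-quartile scaling and 1 and 2 without the 3 and 5 gradients. The causes were not tested.

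Changes in pool 1 turned upward when the scale was matched to typical genes. Under upper-quartile scaling those of Act5C in wild type were 0.57, 0.81 and 1.39 (0-1h to 1-2h, 1-2h to 2-3h, 0-1h to 2-3h) and in orb2-delta-zz 0.74 and 0.96 for the last 2 intervals, and those of Act42A were 0.70 and 0.54 in wild type and 0.97 and 0.78 in orb2-delta-zz. Under quantile normalization the same intervals gave Act5C 0.22 and 0.29 in wild type and 0.17 and 0.0173 in orb2-delta-zz, and Act42A 0.62 and 0.53, and 0.82 and 0.75. Act5C in wild-type pool 3 went to -0.25 from 1-2h to 2-3h. The genotype difference of Act87E in pool 3 at 0-1h was -1.70 without orb2-delta-zz gradient 1 and up to 1.40 without another gradient, and without the 3 or 5 gradients the genotype difference in its change in pool 3 was 1.68 (0-1h to 1-2h) and, without the 5, 1.11 (0-1h to 2-3h).

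Depth limits Act57B most: 2.02 to 8.01 estimated reads underlie its lowest values. The SE of a genotype difference, from 3 gradients a group, was 0.12 to 0.17 on the log2 scale for Act5C and Act42A and 1.73 to 2.34 for Act57B.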
